A study of Homo sapiens with 2 samples.

Results

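The metallothioneins MT1A, MT1E, MT1F, MT1G, MT1H, MT1M, MT1X, MT2A and MT3 and their regulator MTF1 were taken by symbol from the deposited expression table of CWR22rv1 cells, 10 of its 19607 genes. They were chosen by their fold changes between Akt1/2 DKO and control, so all values of that comparison are given as a description. CWR22rv1 cells are a human prostate cancer line. RNA was sequenced from 1 library of CWR22rv1/Akt1/2 DKO cells, in which Akt1 and Akt2 had been cut with CRISPR/Cas9, and 1 library of wild type control cells of the same line, with no added agent named in the labels. The knockout cells were isolated as single clones, and neither the labels nor the methods say which clone was sequenced or whether the control cells had been cloned. With 1 library per condition there is no replicate check, no test was made, and the 95% intervals cover counting error only.

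Metallothioneins are small cytoplasmic proteins that hold zinc, copper and cadmium ions through their many cysteines. They buffer free zinc, take up toxic metals and quench reactive oxygen. MTF1 is the zinc-finger transcription factor that senses free zinc and binds metal response elements in metallothionein promoters. Normal prostate epithelium stores unusually large amounts of zinc, and prostate cancer cells typically lose that store.

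In the Akt1/2 DKO library the expressed metallothioneins were all lower and MTF1 was not. MT1E, the member with the most reads in control cells, was 32.8-fold lower, MT1G 11.7-fold, MT1F 7.76-fold and MT1X 5.09-fold. MT2A, usually the most abundant metallothionein of human cells, was 1.86-fold lower. MTF1 differed by a log2 fold change of 0.08, with a 95% interval from -0.12 to 0.28.

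The metallothionein coding sequences show how alike the genes are whose reads were told apart. Their coding parts in GENCODE release 29, the stop codon included, are printed for the 4 members with the most reads, with the bases that differ from MT1E in capitals.
MT1E: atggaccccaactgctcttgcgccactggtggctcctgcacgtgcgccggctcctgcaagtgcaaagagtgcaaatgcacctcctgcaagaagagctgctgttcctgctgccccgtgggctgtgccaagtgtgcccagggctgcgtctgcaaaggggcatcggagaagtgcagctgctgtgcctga
MT2A: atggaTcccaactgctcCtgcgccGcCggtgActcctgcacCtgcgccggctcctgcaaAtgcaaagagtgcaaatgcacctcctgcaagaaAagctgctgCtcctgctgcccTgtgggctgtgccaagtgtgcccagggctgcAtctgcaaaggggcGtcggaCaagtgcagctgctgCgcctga
MT1X: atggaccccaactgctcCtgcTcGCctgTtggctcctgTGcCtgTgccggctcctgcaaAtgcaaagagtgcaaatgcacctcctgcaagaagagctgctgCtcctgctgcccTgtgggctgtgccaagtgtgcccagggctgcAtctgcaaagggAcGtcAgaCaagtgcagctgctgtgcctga
MT1G: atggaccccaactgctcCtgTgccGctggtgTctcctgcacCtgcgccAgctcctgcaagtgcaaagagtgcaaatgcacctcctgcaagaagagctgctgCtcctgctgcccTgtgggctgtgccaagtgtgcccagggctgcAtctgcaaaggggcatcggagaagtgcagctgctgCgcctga
MT2A differed from MT1E at 14 of 186 bases, MT1X at 17 and MT1G at 10. Each of the 9 coding sequences held 20 cysteine codons, and the codon count before the stop was 61 in all of them but MT3, which had 68. Identity ran from 88.7% (MT1F with MT1X) to 95.2% (MT1G with MT2A) among the 8 MT1 and MT2A genes. MT3, known from brain, shared only 73.4% to 76.3% of aligned bases with them.

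Because the genes are this similar, reads of one paralog can be counted for another. In the principal GENCODE transcript of MT1E, 5.34% of all 50-base windows also occurred in a transcript of another gene, among them MT1F and MT1G, and none of its 100-base windows did. The share of 50-base windows was 4.88% for MT2A, 3.59% for MT1F and 20.2% for MT1G, again with 0 shared windows of 100 bases. MT1X was the least distinct, with 45.1% of its 50-base and 19.1% of its 100-base windows shared. All of its shared 100-base windows lay in AC026461.1, a non-coding gene that overlaps MT1X on the same strand. MT1H shared 20.4% of its 50-base windows with MT1G or MT1HL1. The read length and the treatment of reads with several matches were not given in the sources used here. The deposited reads of the 10 genes were whole numbers in both libraries, whereas 1851 genes of the control library and 1811 of the other had fractional values.

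The promoters of MT2A and MT1X, which fell by different amounts, and of MT1H, which had almost no reads, are shown because MTF1 binds such sequences. They are the 250 bases before the RefSeq start site (GRCh38.p14, plus strand). The GENCODE positions differ from these start sites for MT2A and MT1X. The MT2A gene starts earlier there, at 56608199, so the whole MT2A stretch lies inside it. The end of the MT1X stretch lies inside MT1X, which starts at 56682424 in GENCODE. Capitals mark each match to the core of the metal response element, searched as TGCACNC and TGCGCNC on both strands.
MT2A, chr16:56608334-56608583: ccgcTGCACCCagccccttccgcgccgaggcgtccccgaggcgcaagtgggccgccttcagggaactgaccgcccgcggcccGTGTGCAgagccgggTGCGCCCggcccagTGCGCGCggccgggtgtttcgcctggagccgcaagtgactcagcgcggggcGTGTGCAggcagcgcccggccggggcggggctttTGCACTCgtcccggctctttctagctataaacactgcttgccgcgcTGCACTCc
MT1X, chr16:56682220-56682469: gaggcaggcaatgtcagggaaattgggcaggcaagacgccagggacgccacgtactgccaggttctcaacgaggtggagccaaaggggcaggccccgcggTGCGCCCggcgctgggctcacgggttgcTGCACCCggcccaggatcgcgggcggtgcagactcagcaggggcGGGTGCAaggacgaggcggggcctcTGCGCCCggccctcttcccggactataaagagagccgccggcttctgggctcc
MT1H, chr16:56669564-56669813: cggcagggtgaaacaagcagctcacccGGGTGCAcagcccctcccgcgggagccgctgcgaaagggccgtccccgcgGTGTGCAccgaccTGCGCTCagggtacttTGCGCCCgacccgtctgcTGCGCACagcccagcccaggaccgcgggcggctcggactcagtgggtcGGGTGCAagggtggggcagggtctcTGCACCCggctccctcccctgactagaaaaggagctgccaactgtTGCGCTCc
MT2A held 7 matches, MT1X 4 and MT1H 8. Of all 35116 promoters of this length, 24.8% held at least 1 match and 0.370% at least 4, so the count in each of the 3 was uncommon. The promoter of MTF1 held 0 matches. MT2A and MT1X each carried the letters TATAAA once, which 10.7% of all promoters held on either strand, and MT1H did not. Of the 10 genes, 4 had a promoter in the table used, and MT1A, MT1E, MT1F, MT1G, MT1M and MT3 had none. MT1H, with the most matches of the 3, had 1 read over both libraries.

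The libraries held 9970820 reads (control) and 10718650 reads (Akt1/2 DKO) over all genes, as estimated and deposited by the authors. Reads were rounded and scaled by edgeR's TMM method to CPM, reads relative to a common library total, with a library size ratio of Akt1/2 DKO to control of 1.11. The limit that a count of 0 allows, 3 reads, equals 0.306 CPM in control and 0.276 CPM in Akt1/2 DKO and is used as the floor. The targeted genes matched the labels, with AKT1 at 2645 reads in control and 591 in Akt1/2 DKO and AKT2 at 2362 and 667. Luminal prostate genes were present in both libraries, FOXA1 at 2511 and 3289 reads and HOXB13 at 2363 and 865, while KLK3 fell from 184 to 29. The basal markers KRT5 and TP63 had 0 reads in both libraries, and 4 leukocyte markers summed to 2 and 1 reads. The 5 fibroblast markers summed to 138 and 153 reads, with COL1A1 and LUM higher and COL3A1 lower in Akt1/2 DKO, and their part in the metallothionein values was not tested. In RNA from whole cultures, a fall in some cells and a smaller fall in every cell cannot be told apart.

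Of the 10 genes, 6 had 10 or more reads over both libraries and were compared. In these, 5 were at least 1.5-fold lower in Akt1/2 DKO and 0 higher. Over all 13318 genes with 10 or more reads, 15.0% were at least 1.5-fold lower and 15.9% higher, 30.9% in all. At 2-fold, 4 of the 6 were lower, against 7.94% of all genes. Of the 5 members with 100 or more reads, 4 were at least 1.5-fold lower, against 11.9% of all genes of that depth. The median log2 fold change of the 6 was -2.65, and that of all genes was 0.01. Since the genes were chosen with this contrast known, nothing is read from these shares.

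MT1E (ENSG00000169715, chromosome 16 from 56625475 to 56627112, GRCh38) is an MT1 isoform inducible by zinc and cadmium. It had 591 reads in control cells and 20 in Akt1/2 DKO cells. Control cells were far above Akt1/2 DKO cells, and the log2 fold change was -5.03 (95% interval -5.76 to -4.39). Among the 13318 genes its fold change took rank 52 from the lowest. MT1G (ENSG00000125144, chromosome 16 from 56666731 to 56668065), the only member of the cluster on the minus strand, had 148 and 14 reads. Its log2 fold change was -3.55 (95% interval -4.46 to -2.76), rank 135 from the lowest.

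MT1X (ENSG00000187193, chromosome 16 from 56682424 to 56684196) lies at the end of the cluster and is induced by metals like its neighbours. It had 234 reads in control and 51 in Akt1/2 DKO. The fall was smaller than that of MT1E or MT1G, with a log2 fold change of -2.35 (95% interval -2.81 to -1.90) at rank 317. Reads of AC026461.1 could be counted here. MT1F (ENSG00000198417, chromosome 16 from 56657694 to 56660698) had only 14 reads in control and 2 in Akt1/2 DKO. Its log2 fold change of -2.96 therefore had a wide 95% interval, from -6.14 to -0.83.

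MT2A (ENSG00000125148, chromosome 16 from 56608199 to 56609497) is the single MT2 gene of the human genome and responds to metals and glucocorticoids. It had 543 reads in control and 323 in Akt1/2 DKO. The log2 fold change was -0.90 (95% interval -1.10 to -0.70), rank 1199 from the lowest. MT2A thus kept the largest part of its reads among the expressed metallothioneins.

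The other metallothioneins were at the limit of detection. MT1A had 2 and 0 reads, MT1M 2 and 0, and MT1H 1 and 0. MT3, the brain isoform with growth-inhibitory activity on neurons, had 0 and 1 reads. All 4 were at or under the floor of 3 reads in both libraries, so no fold is given, and the depth could not show a difference. MT1B, MT4, the isoform of stratified squamous epithelium, and MT1HL1 had 0 reads in both libraries. The pseudogene MT1IP, found by its identifier under another symbol, also had 0 reads. The identifiers of 8 further metallothionein pseudogenes were not among the 19607 with values, so no reads of their own can be given.

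MTF1 (ENSG00000188786, chromosome 1 from 37809567 to 37859620) had 389 reads in control and 455 in Akt1/2 DKO. The libraries were close to each other once scaled, and the interval of the fold change included no difference while it lay within 1.5-fold on both sides. An antisense gene, AL929472.4, overlaps MTF1, and whether the reads were counted by strand was not given in the sources used here.

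**Figure D1:**
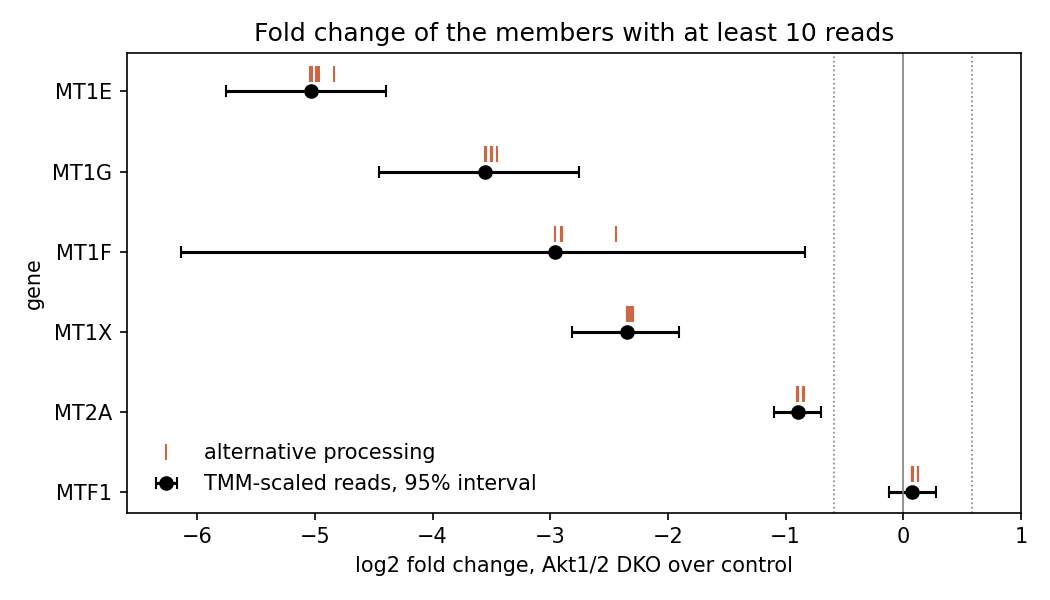
Log2 fold change, Akt1/2 DKO over control, of the 6 members with 10 or more reads, with 95% intervals for counting error as bars, alternative processing as small ticks and 1.5-fold as dotted lines. The 5 metallothioneins lie left of the 1.5-fold line, from -5.03 for MT1E to -0.90 for MT2A, and MTF1 lies at 0.08.

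The falls were unequal. Dividing the change of 1 metallothionein by that of another gives a ratio that does not depend on how the libraries were scaled, and it was computed for all 10 pairs of the 5 expressed metallothioneins. The fold decrease of MT1E was 17.6 times that of MT2A (95% interval 11.0 to 29.6), 6.43 times that of MT1X (3.67 to 11.6) and 2.79 times that of MT1G (1.27 to 5.97). The fold decrease of MT1G was 2.30 times that of MT1X (1.20 to 4.66) and 6.28 times that of MT2A (3.55 to 12.0). For MT1X against MT2A the ratio was 2.73 (1.94 to 3.89). The intervals of these 6 ratios lay above 1, but each pair was ordered by the size of the fall in these same data. The intervals cover counting error only, not reads shared between paralogs, to which the low Akt1/2 DKO counts of MT1E and MT1G are open. The intervals of the 4 ratios with MT1F included 1, and for MT1F with MT2A the interval was 0.946 to 37.9. MT1F could not be placed in this order at its depth.

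Levels were compared between genes only per transcript length, by the FPKM values the authors deposited. The order of the genes therefore rests on the lengths behind these values, which were not checked. For MT2A the length depends on the annotation, since its RefSeq start site lies inside the gene as GENCODE places it. The counting intervals cover neither these lengths nor reads shared between paralogs. In control cells MT1E was highest at 87.2 FPKM (95% counting interval 80.3 to 94.6), followed by MT2A at 68.9 FPKM (63.2 to 74.9). MT1X at 51.8 FPKM (45.3 to 58.8) and MT1G at 36.3 FPKM (30.7 to 42.7) came next. These intervals did not overlap, and MTF1 at 4.86 FPKM and MT1F at 2.02 FPKM were lower still. In Akt1/2 DKO cells the order was another. MT2A was highest at 38.1 FPKM (34.0 to 42.5) and MT1X next at 10.5 FPKM (7.80 to 13.8). MTF1 at 5.29 FPKM, MT1G at 3.20 FPKM (1.75 to 5.37) and MT1E at 3.05 FPKM (1.86 to 4.71) followed, and the intervals of MT1G and MT1E overlapped. MT1F was at 0.27 FPKM, from 2 reads. MT1E, first in the control library, thus stood level with MT1G and below MTF1 in the Akt1/2 DKO library.

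**Figure D2:**
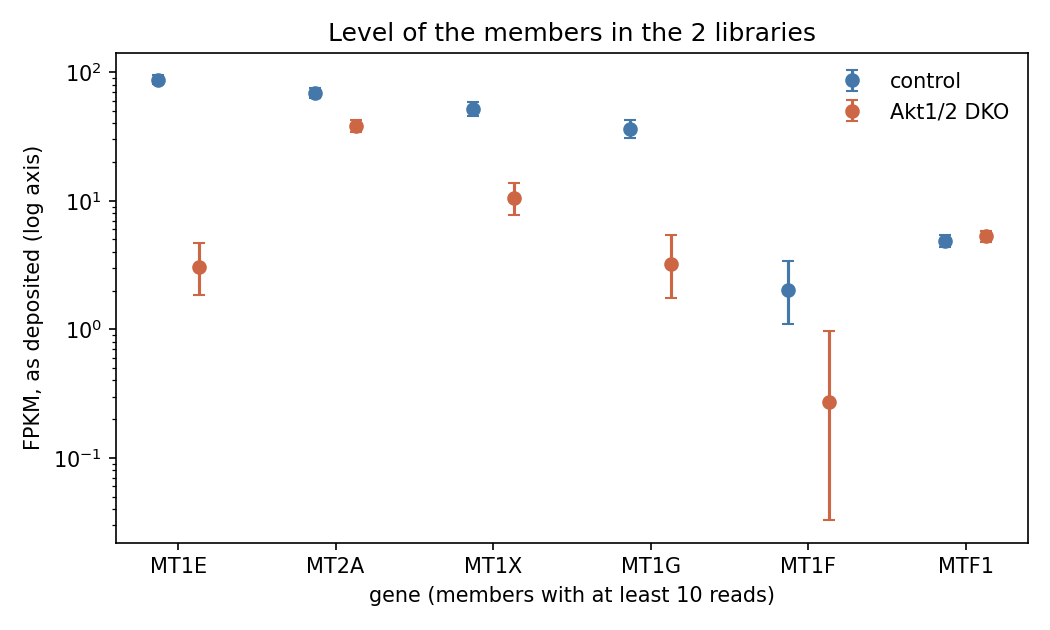
Level in FPKM on a log axis of the 6 members with 10 or more reads, in the control library (blue) and the Akt1/2 DKO library (orange), with 95% Poisson intervals for counting error. MT1E drops from 87.2 to 3.05 FPKM and MT2A from 68.9 to 38.1 FPKM, while MTF1 stays at 4.86 and 5.29 FPKM.

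Summed over the 9 metallothioneins, control cells had 1535 reads and Akt1/2 DKO cells 411. Reads passed from 1 of the 9 to another cancel in this sum. Reads shared with AC026461.1 or with pseudogenes, and any reads left out for having several matches, do not. The sum was 4.14-fold lower in Akt1/2 DKO (95% interval 3.71 to 4.63), or 156 against 37.8 CPM. The 7 MT1 genes alone fell from 992 to 87 reads, 12.6-fold (95% interval 10.1 to 15.9). MT1E was 38.5% of the metallothionein reads in control (95% exact interval 36.1% to 41.0%) and 4.87% in Akt1/2 DKO (3.0% to 7.4%). MT2A went the other way, from 35.4% (33.0% to 37.8%) to 78.6% (74.3% to 82.5%). The share of MT1X, 15.2% and 12.4%, had overlapping intervals.

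The 9 metallothioneins lie together on chromosome 16 from 56589074 to 56684196, a span of 95.1 kb, with BBS2 68.8 kb before MT3 and NUP93 45.9 kb after MT1X. Of 14 listed neighbouring genes, 12 had 10 or more reads, of which 3 were at least 1.5-fold higher, 2 lower and 7 neither, beside 30.9% of all genes past 1.5-fold in either direction. Their median log2 fold change was 0.02, and that of 621 chromosome 16 genes was 0.01. BBS2, a subunit of the ciliary BBSome, had 734 reads in control and 522 in Akt1/2 DKO, a log2 fold change of -0.64 (95% interval -0.81 to -0.48). NUP93, a nuclear pore scaffold protein on the other side, had 769 and 751 reads, a log2 fold change of -0.18 (-0.33 to -0.04). CPNE2 was the lowest of the neighbours at a log2 fold change of -0.89, and HERPUD1, a gene of endoplasmic reticulum stress, was higher at 0.72. The other higher neighbours, NLRC5 and GNAO1, had 24 and 11 reads over both libraries. The interval of CPNE2 (-1.16 to -0.62) covered the log2 fold change of MT2A, -0.90, and that of BBS2 overlapped the interval of MT2A. The interval of none of the 12 neighbours reached the fall of MT1X, MT1G or MT1E.

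**Figure D3:**
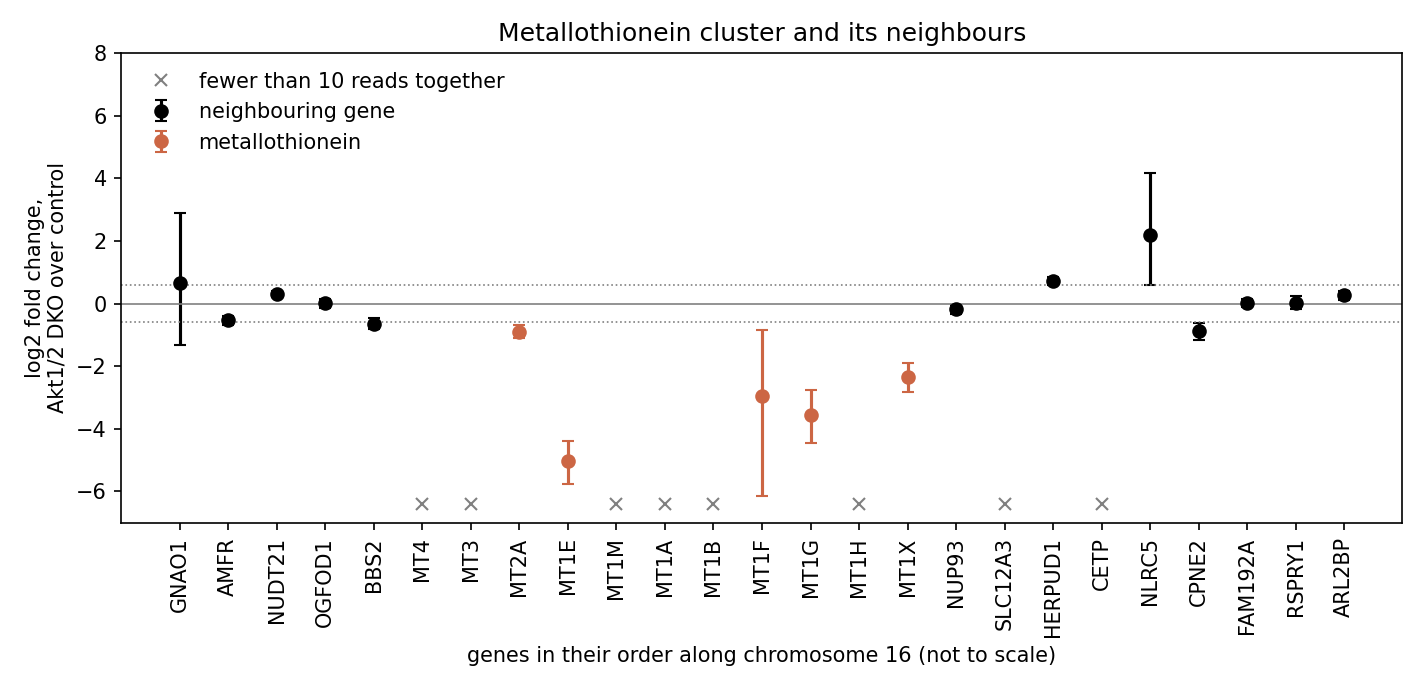
Log2 fold change, Akt1/2 DKO over control, of metallothioneins (orange) and neighbouring genes (black) in their order along chromosome 16, with 95% intervals for counting error and 1.5-fold as dotted lines. Grey crosses at the bottom mark genes with fewer than 10 reads together. The metallothioneins lie from -0.90 to -5.03, and BBS2 and NUP93 on either side lie at -0.64 and -0.18.

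Other genes under MTF1 were described from a short list. SLC30A1, the plasma membrane zinc exporter that MTF1 induces, had 258 reads in control and 281 in Akt1/2 DKO, a log2 fold change of -0.03 (95% interval -0.27 to 0.22). GCLC, the catalytic subunit of glutathione synthesis, had 686 and 779 reads, a log2 fold change of 0.03 (-0.12 to 0.18). SLC39A10, a zinc importer that MTF1 represses, had 817 and 749 reads, a log2 fold change of -0.27 (-0.42 to -0.13). PGF, also on the list, had only 8 and 10 reads, a log2 fold change of 0.17. Its interval (-1.32 to 1.72) reached past 1.5-fold on both sides. Of the 4 genes of the list with 10 or more reads, 0 passed 1.5-fold, beside 30.9% of all genes in either direction. HAMP had 0 reads.

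Among zinc exporters of the SLC30 family, 7 of 10 had 10 or more reads, 1 was higher and 0 were lower, beside 15.9% and 15.0% of all genes. The higher gene was SLC30A3, an exporter that fills synaptic vesicles with zinc, with 0 reads in control and 38 in Akt1/2 DKO. With control set to the floor of 3 reads it was 11.4-fold higher, and the lower 95% limit for counting error was 8.85-fold. Among zinc importers of the SLC39 family, 11 of 14 had 10 or more reads, 0 were higher and 2 lower, beside the same shares. SLC39A8, an importer of zinc, manganese and cadmium, went from 1249 to 375 reads, a log2 fold change of -1.88 (95% interval -2.06 to -1.72). SLC39A13 went from 93 to 57 reads. SLC39A1, the importer linked to prostate zinc uptake, had 1963 and 2877 reads, a log2 fold change of 0.40 that was below 1.5-fold.

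For copper handling, all 13 identifiers of 12 symbols had 10 or more reads, 2 were higher, 1 lower and 10 neither, beside 30.9% of all genes past 1.5-fold in either direction. CCS, the copper chaperone for superoxide dismutase, had 109 and 186 reads, a log2 fold change of 0.62. COX11, which brings copper to cytochrome oxidase, had 50 and 108 reads, a log2 fold change of 0.96. The lower identifier was a second one for SCO2, with 32 and 13 reads after rounding, which shares its symbol with an identifier of 379 and 546 reads.

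Of 9 heavy-metal and oxidative stress genes, 2 were at least 1.5-fold higher and 0 lower, beside 15.9% higher and 15.0% lower over all genes, with a median log2 fold change of 0.20. HMOX1, the heme oxygenase that cadmium and oxidants induce, had 72 and 57 reads, a log2 fold change of -0.49 (95% interval -1.01 to 0.04). DNAJB1, a heat shock co-chaperone, had 1226 and 1122 reads, a log2 fold change of -0.28 (-0.39 to -0.16). GCLM, the regulatory subunit of glutathione synthesis, had 275 and 1104 reads, a log2 fold change of 1.86 (1.66 to 2.05). HSPA1A had 119 and 438 reads, but HSPA1B, a near-identical copy that can share its reads, had 4325 and 4930.

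Glucocorticoids also induce metallothioneins, so the receptor and known target genes were listed. NR3C1, the glucocorticoid receptor, had 57 reads in control and 373 in Akt1/2 DKO, a log2 fold change of 2.56 (95% interval 2.16 to 2.99). The kinase gene SGK1 had 2 and 90 reads, a log2 fold change of 5.34 (3.45 to 8.41), and the phosphatase gene DUSP1 had 53 and 333, a log2 fold change of 2.50. FKBP5, a receptor co-chaperone induced by androgens as well, had 3554 and 2608 reads, a log2 fold change of -0.60 (-0.67 to -0.52). Of the 9 genes of this list, 3 were higher, 1 lower and 5 neither, beside 15.9% higher and 15.0% lower over all genes.

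**Figure D4:**
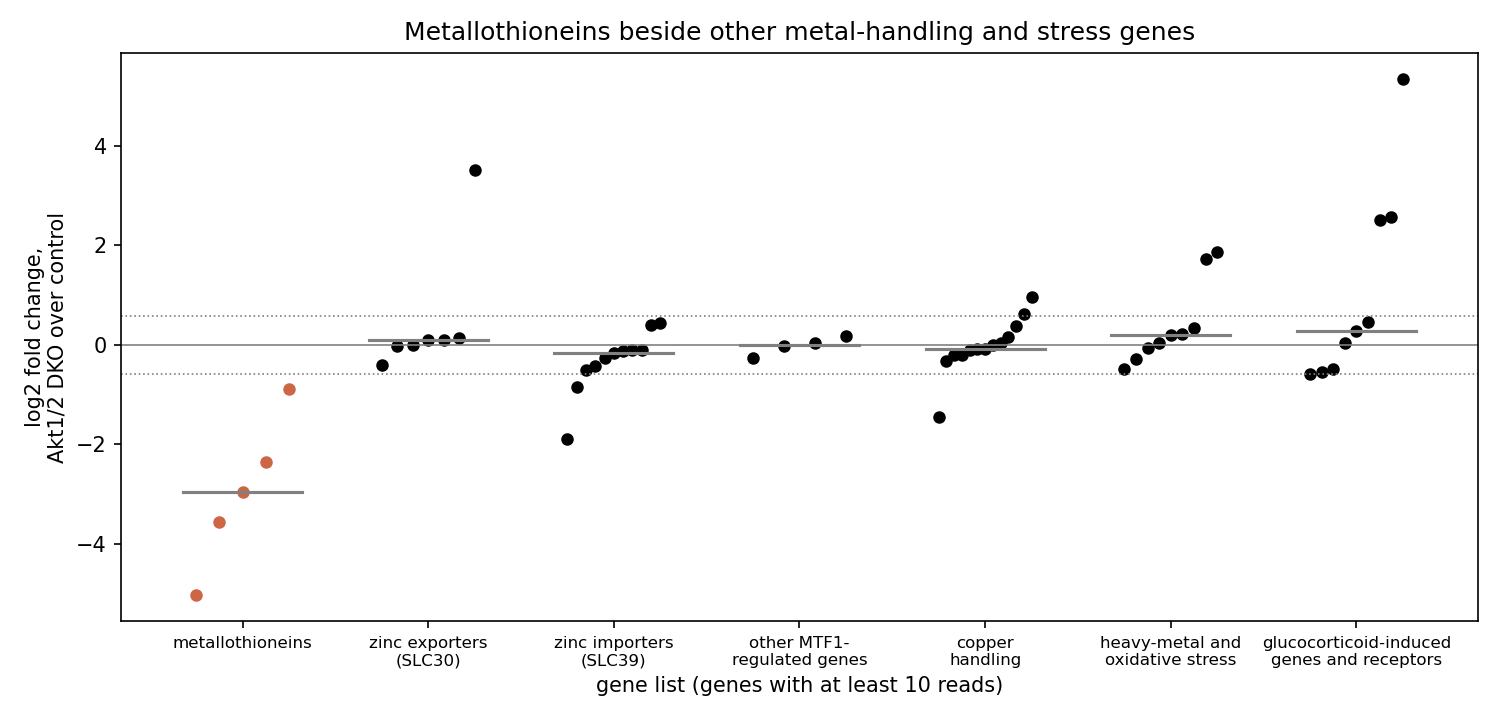
Log2 fold change, Akt1/2 DKO over control, of each gene with 10 or more reads in 7 lists, SLC30A3 set against the floor, with the median of each list as a grey bar and 1.5-fold as dotted lines. The 5 metallothioneins (orange, median -2.96) all lie below the 1.5-fold line, and the medians of the 6 other lists lie between -0.16 and 0.27.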

How the data were processed

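RNA was measured in 1 Akt1/2 DKO and 1 control library of CWR22rv1 cells. Deposited were estimated counts, not normalized, and FPKM values, which the authors scaled by transcript length and depth. The submitters' processing notes name fastp 0.20.0, TopHat, Cufflinks, edgeR and the build GRCh38.p10, without their roles. The authors' tables of their own comparison (log2 fold changes, p-values, FDR, ontology classes) and of the correlation of the libraries were not used.

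Counts were rounded, and genes with 10 or more reads over both libraries were kept. Library sizes were scaled with TMM (edgeR 4.0.16, R 4.3.3). Intervals are 95% Clopper-Pearson intervals given the sum of both libraries, Poisson intervals for levels and conditional intervals for ratios of folds (scipy 1.17.1, Python 3.11.15). A library with 0 reads was set to the floor of 3 reads. The calculation was tested on simulated data. Total counts, DESeq2 1.42.0 size factors, upper quartile, FPKM, other filters and thresholds, and a prior count of 1 were tried.

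Positions, transcripts and coding sequences come from GENCODE release 29 (GRCh38), which held 19571 of 19607 identifiers. Promoters come from RefSeq (GRCh38.p14). Coding sequences were aligned with Biopython 1.88.

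The members and lists were chosen with earlier results of these data known. All 10 members are named, and from the other lists the genes with the most reads, past 1.5-fold or needed for a comparison.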

Additional observations from a re-analysis of the deposited data

How the results depend on the processing

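Of 77 values recomputed under other settings, 75 stayed within the counting interval of the reported value, or within 1.5 times for counts. The summed log2 fold change of the metallothioneins, -2.05, lay between -2.16 and -2.0 under the scalings, filters, prior count and deposited FPKM. It was -3.64 without MT2A and, in a setting chosen after seeing the data, -1.42 without MT1E, where MT2A held 78.6% of the reads in Akt1/2 DKO and MT1E 38.5% in control. The number of members at least 1.5-fold lower was 5, or 4 when each library needed 10 reads or both together 50 (which leaves out MT1F) or when the threshold was 2-fold (MT2A). The log2 fold change of MTF1 ranged from 0.07 to 0.13. Depth limits MT1F and the 4 members at or under 3 reads. A single clone and the knockout cannot be told apart with 1 library. No paired analysis was possible because there is only 1 library of either condition.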

Other observations

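The deposited annotation places 9 metallothionein genes, with MT1B but not MT3, in a mineral absorption pathway of 51 genes, a list added after its values were seen and therefore given as values only. Of the 42 genes of that pathway that are no metallothioneins, 27 had 10 or more reads over both libraries, of which 11 were at least 1.5-fold lower in Akt1/2 DKO, 3 higher and 13 neither, with a median log2 fold change of -0.23. Over all genes 15.0% were lower and 15.9% higher. Among the lower genes were SLC40A1, the cellular iron exporter, with 97 reads in control and 11 in Akt1/2 DKO, STEAP2, a metalloreductase abundant in prostate, with 1482 and 353, and FTH1, the ferritin heavy chain, with 7943 and 5611. Other iron and heme genes of the pathway were not lower, FTL, the ferritin light chain, with 2471 and 2971 reads, SLC11A2, an iron importer, with 957 and 1198, and SLC46A1, a heme and folate carrier, with 571 and 853. VDR, the vitamin D receptor, was higher with 163 and 608 reads, and so was ATP1B1, a sodium pump subunit, with 368 and 1991.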
